A study of Mus musculus with 158 samples.

Results

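A set of 11 short hairpin RNAs (shRNAs) aimed at Aff2, Aff4 and Myst4 was followed through a pooled screen. They are all the hairpins whose listed target is one of these 3 genes, 11 of 1000 targeting hairpins against 285 genes. Myst4 is an older symbol of Kat6b. An shRNA is an RNA, expressed from an integrated virus, that lowers the messenger RNA of the gene it matches, and reads of its sequence in genomic DNA count the cells that carry it.

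The cells were PDA530 Met, a line from a liver metastasis of a mouse pancreatic cancer adenocarcinoma. Cells of every group carried hairpins of 1 of 19 pools, or in many culture libraries of 2 of them, delivered by virus at a low multiplicity of infection and followed by puromycin selection, so untransduced or unselected cells were in no group. The 3 groups were the selected cells at day 0, the same cells kept in culture to day 28, and lung tumours at day 28 after injection into the tail vein, a route that seeds the lungs from the blood with no primary tumour. Each pool went into 3 mice, all tumours of a mouse were pooled into 1 DNA sample, and culture was run in triplicate. The labels give no strain, sex or age of the mice, and they do not say whether the day 0 samples were separate infections. A p-value of such a comparison measures only the spread between these samples, part of which may be technical. The knockdown of Aff2, Aff4 or Myst4 itself was not measured in the files used here, so no value below says how far a gene was silenced.

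Aff2 and Aff4 belong to the AF4/FMR2 family of nuclear proteins. Aff4 is the scaffold of the super elongation complex, in which it holds the kinase P-TEFb and the ELL elongation factors together so that paused RNA polymerase II can be released into productive transcription. Aff2, also called Fmr2, is a relative whose loss in people underlies a form of X-linked intellectual disability. Myst4 (Kat6b, also Morf) is a histone acetyltransferase of the MYST family that works with BRPF scaffold proteins on histone H3. Genes of this kind are broadly used for transcription, and chromatin regulators are among the genes recurrently mutated in pancreatic cancer.

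The hairpins were split over 5 pools. All 4 Aff2 hairpins lay in pool 2. The 4 Aff4 hairpins lay in pools 11 and 12, with 2 in each. Of the 3 Myst4 hairpins, 2 lay in pool 9 and 1 in pool 17. No library is named for more than 1 of these 5 pools, so each was set against the 52 to 54 targeting hairpins of its own pool. Levels are given as CPM (counts normalised to the same total) of the reads of that pool's targeting hairpins, scaled over all libraries of the pool with TMM, a method that assumes most hairpins keep their share. A rise or a fall is therefore relative to the other hairpins of the pool, not a gain or loss of cells. Fold changes come from a fit of the 2 groups compared, scaled on their own, and compare means of log2 values. The separate scaling moved them by at most 0.29 from the difference of the mean log2 levels, and where libraries of a group differ widely they can lie far from the ratio of the mean CPM.

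In the libraries of these 5 pools, total reads per library lay between 4646562 and 13226329 at day 0, 4525346 and 26068466 for culture, and 1285372 and 9448986 for lungs. All 11 hairpins passed the filter of a mean of 10 reads, and the smallest number of reads behind any of their levels below is 391. Counting error was therefore small beside the spread between libraries, and reads amplified by PCR without molecular identifiers are not independent molecules. The spread rose from day 0 to lungs. In pool 11, for example, the median hairpin had a standard deviation of 0.10 at day 0, 0.28 in culture and 0.54 in lungs on the log2 scale, and in pool 9 these medians were 0.07, 0.40 and 0.75. Culture libraries of pools 2, 9, 11 and 17 each hold a second pool as well, while those of pool 12 do not. In 1 lung library of pool 17, 18.7% of the reads were of other pools' hairpins, and in 1 culture library shared by pools 16 and 17 they were 15.3%.

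Each of the 3 genes had at least 1 hairpin that rose and 1 that fell in some comparison. By limma's moderated test with Benjamini-Hochberg adjustment over all hairpins of all pools, 4 of the 11 hairpins changed between lungs and day 0, 1 higher and 3 lower, where 33.8% of all hairpins tested were called, 14.7% higher and 19.1% lower. Between culture and day 0, 8 of 11 changed, 4 higher and 4 lower, beside 60.6% of all hairpins (28.8% higher and 31.9% lower). Between lungs and culture, 2 of 11 changed, 1 higher and 1 lower, beside 24.9% of all hairpins (11.6% higher and 13.3% lower). Of the 891, 945 and 889 hairpins tested in these 3 comparisons, edgeR called 279, 553 and 222, DESeq2 called 403, 594 and 289, and 403, 620 and 324 had an unadjusted limma p under 0.05. These shares are near the background, so the counts single out nothing about the 3 genes as a set. The median log2 change of the 11 was 0.07 from day 0 to lungs against -0.13 over all hairpins tested, -0.01 from day 0 to culture against -0.10, and -0.37 from culture to lungs against -0.11.

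Directions depend on what stands for no change. Without TMM, scaled to the pool's total alone, the median hairpin of the screen moved by -0.73 from day 0 to lungs, -0.64 from day 0 to culture and -0.26 from culture to lungs, and 24.4%, 26.5% and 44.6% of the calls were rises, against 43.5%, 47.5% and 46.6% with TMM. On the deposited scale these medians were -0.82, -0.89 and -0.13 with 30.5%, 20.6% and 60.6% rises, and scaled to the control hairpins -0.57, -0.99 and 0.30 with 46.2%, 16.1% and 82.5% rises. Of the 11 hairpins in culture, TMM scaling thus gave 4 rises and 4 falls, scaling to totals 2 and 6, the deposited scale 1 and 7, and scaling to the controls 2 and 8. From culture to lungs, TMM scaling gave 1 rise and 1 fall, scaling to totals 2 and 3, the deposited scale 4 and 1, and scaling to the controls 6 and 0.

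The deepest falls were of Aff4 hairpins. In pool 11, TRCN0000103587 stood at 31206, 33869 and 35987 CPM in the 3 day 0 libraries. In culture it was at 4264, 3009 and 3080 CPM. In lungs it was at 6902, 495 and 2981 CPM. All 6 late libraries lay below all 3 of day 0, and the lung libraries spanned the culture values. Its rank among the 52 hairpins of the pool, highest first, moved from between 7 and 10 at day 0 to between 34 and 39 in culture and between 30 and 50 in lungs. The hairpin fell by 3.01 on the log2 scale in culture (SE 0.14, 8.04-fold lower, n = 3 against 3), the deepest fall of the 52 hairpins of its pool, with a limma adjusted p of 5.36e-51. That p rests on the fitted trend of the pool, whose prior degrees of freedom had no upper bound. Without trend and robust estimation limma gave an adjusted p of 2.41e-05. In lungs it fell by 3.95 from day 0 (SE 0.94, 15.5-fold lower, limma adjusted p = 0.0248), and only 1 of the 52 hairpins had a lower fold change. This lung call was lost when any 1 of the day 0 libraries was left out, with limma adjusted p from 0.0756 to 0.0769 and values from -4.01 to -3.91. Its size rested on single mice, at -2.77 without lung library B and -4.69 without lung library A (limma adjusted p = 0.00314 and 0.00381). The 2 lung libraries A and B differed from each other 13.9-fold. From culture to lungs the estimate was -0.87 (SE 0.76, limma adjusted p = 0.424), so no further change was detected beyond the spread between mice.

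The second Aff4 hairpin of pool 11 did not follow it. TRCN0000103588 stood at 19779, 19856 and 19031 CPM at day 0, at 13571, 9288 and 12179 CPM in culture, and at 14912, 31899 and 27017 CPM in lungs. The culture libraries lay below day 0 without overlap, and the lung libraries lay on both sides of it. It fell by 0.47 in culture (SE 0.13, limma adjusted p = 0.00157), a 1.38-fold decrease, and this call was lost in the fit of all 3 groups together, at an adjusted p of 0.0695. The estimate for lungs against day 0 was 0.26 (SE 0.30, limma adjusted p = 0.541). All 3 lung libraries lay above all 3 of culture, with a log2 fold change of 0.81 (SE 0.42, limma adjusted p = 0.181) that passed the threshold with DESeq2 (1.18), on the deposited scale (1.47), with control totals (1.70) and in the fit of all 3 groups (1.02). Lung library A alone lay below day 0, and without it limma gave 0.69 against day 0 (adjusted p = 0.0114) and 1.34 against culture (adjusted p = 0.0132).

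In pool 12, TRCN0000103586 was the Aff4 hairpin that fell. It stood at 20498, 20353 and 18302 CPM at day 0. The culture libraries gave 8321, 4757 and 3887 CPM. The lung libraries gave 3468, 1389 and 11573 CPM, so every late library lay below day 0 while the 3 mice differed by up to 8.33-fold. In culture the hairpin fell by 1.88 (SE 0.22, 3.67-fold lower, limma adjusted p = 1.41e-06), with a rank of 3 from the bottom among the 53 fold changes of the pool. In lungs it fell by 2.39 from day 0 (SE 0.66, 5.22-fold lower, limma adjusted p = 0.0245). This lung call was lost under edgeR's quasi-likelihood test (log2 fold change -1.85, adjusted p = 0.0708), under scaling to the control hairpins (-1.97, limma adjusted p = 0.177), and without day 0 library B, day 0 library C or lung library A (-2.34, -2.61 and -2.31, limma adjusted p from 0.0613 to 0.0745). It was -1.65 without lung library B and -3.16 without lung library C (limma adjusted p = 0.0417 and 0.000693). Lungs against culture gave -0.37 (SE 0.66, limma adjusted p = 0.705).

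Its partner in pool 12 went the other way. TRCN0000103585 stood at 12218, 12834 and 13870 CPM at day 0, at 22637, 22042 and 17927 CPM in culture and at 9860, 19556 and 17170 CPM in lungs. The culture libraries were all above day 0, and the lung libraries overlapped both groups. It rose in culture by 0.68 (SE 0.13, 1.60-fold, limma adjusted p = 0.00015). The rise was 0.17 (limma adjusted p = 0.262) when the reads were scaled to the pool's total without TMM and 0.28 (adjusted p = 0.0721) on the deposited scale, and the fit of all 3 groups gave an adjusted p of 0.0502. Lungs against day 0 gave 0.18 (SE 0.29, limma adjusted p = 0.657), and lungs against culture -0.36 (SE 0.36, limma adjusted p = 0.486). Without lung library A the value from day 0 to lungs was 0.48, and limma called it.

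Over the 4 Aff4 hairpins, 3 fell and 1 rose between day 0 and culture, where 75% of the hairpins of pool 11 and 64.2% of those of pool 12 were called. Between day 0 and lungs, where 38.5% and 39.6% of these pools were called, 2 fell and 0 rose by limma, where 1 fell by edgeR and 2 by DESeq2, and 0 had a rise at an unadjusted limma p under 0.05. Between culture and lungs, where 38.5% and 30.2% of these pools were called, limma called 0 of the 4, also before adjustment. In this comparison edgeR called 0 of the 4, and DESeq2 called 1 as higher. The hairpins that fell deeply in culture were 1 of 2 in each pool.

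Non-targeting control hairpins were read on the same scale in the same libraries. Non-targeting-shRNA-2 had a mean log2 difference from day 0 of -1.81 in culture and -3.00 in lungs in pool 11, and of -1.94 and -4.47 in pool 12. Non-targeting-shRNA-1 differed from day 0 by 1.52 and 0.38 in pool 11, and by 1.04 and -0.09 in pool 12, in culture and lungs respectively. The GFP control hairpin differed by 0.34 and -0.54 in pool 11, and by -0.04 and -0.31 in pool 12. The differences of Non-targeting-shRNA-2 were thus at least as low as those of TRCN0000103586 in pool 12, and in pool 11 those of TRCN0000103587 were lower. These control differences were not tested, and the culture libraries of pool 11 also contain the controls of the second pool they hold.

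The 1 rise called from day 0 to lungs was of an Aff2 hairpin. TRCN0000103531 stood at 59322, 54516 and 43615 CPM in the day 0 libraries of pool 2. It was at 51257, 51960 and 52489 CPM in culture, within the range of day 0. It was at 157371, 118403 and 126305 CPM in lungs, above every day 0 and culture library. In each of the 3 mice it ranked first among the 52 hairpins of the pool and held 12.1% ± 1.59 (SD, n = 3) of the pool's targeting reads, against 6.00% ± 0.60 (SD, n = 3) at day 0 and 4.99% ± 0.39 (SD, n = 3) in culture. It rose by 1.38 from day 0 to lungs (SE 0.15, 2.60-fold, limma adjusted p = 0.000383) and by 1.37 from culture to lungs (SE 0.13, 2.58-fold, limma adjusted p = 0.000674). Both of these calls held under every alternative, with values from 1.01 to 1.92 and from 1.23 to 3.00. It already held ranks 1 to 3 at day 0. In culture the estimate against day 0 was 0.25 (SE 0.12, limma adjusted p = 0.0809), with no settled direction: limma called it lower on pool totals (-0.27, adjusted p = 0.031), on the deposited scale (-1.02, adjusted p = 1.12e-05) and with control totals (-1.07, adjusted p = 7.24e-06).

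TRCN0000103532 was the Aff2 hairpin called lower in lungs. It stood at 14531, 14676 and 15681 CPM at day 0, at 9513, 11667 and 9986 CPM in culture and at 6881, 7768 and 7464 CPM in lungs. The 3 groups did not overlap and the lungs were lowest. In lungs it fell by 1.00 from day 0 (SE 0.22, limma adjusted p = 0.00984), and its rank went from between 20 and 24 to between 29 and 31. Scaling to the control hairpins gave -0.45 (limma adjusted p = 0.181). The estimate was -0.28 for culture against day 0 (SE 0.14, limma adjusted p = 0.0916), and limma called a fall there on pool totals (-0.79), on the deposited scale (-1.55), with control totals (-1.60) and in the fit of all 3 groups (-0.53), 4 of 16 alternatives. It was -0.48 for lungs against culture (SE 0.14, limma adjusted p = 0.0511), a fall called by edgeR (adjusted p = 0.042) and DESeq2 (adjusted p = 0.018), and a rise called with control totals (1.15, limma adjusted p = 0.0036).

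TRCN0000103533 differed from both, since it was high in culture. It stood at 51580, 48976 and 39725 CPM at day 0, at 80072, 81621 and 74200 CPM in culture and at 49056, 50192 and 39015 CPM in lungs. Culture lay above both other groups without overlap, and lungs and day 0 overlapped. Lungs against day 0 gave 0.0050 (SE 0.15, limma adjusted p = 0.979), with calls in opposite directions on pool totals (-0.36, adjusted p = 0.0451) and with control totals (0.55, adjusted p = 0.0285). It rose by 1.01 in culture (SE 0.11, 2.01-fold, limma adjusted p = 1.19e-08), and its level in lungs was lower than in culture by a log2 fold change of -0.77 (SE 0.11, limma adjusted p = 0.00401). On the deposited scale these 2 values, for culture against day 0 and lungs against culture, were -0.26 and 0.21, and on scaling to the control hairpins -0.31 and 0.86, the reverse direction. The culture libraries of pool 2 hold the controls of 2 pools, which enter the scaling to the control hairpins, and how the deposited scale was made is not given in the sources used here. The hairpin's share of the pool's targeting reads was 5.35% ± 0.40 at day 0, 7.54% ± 0.19 in culture and 4.18% ± 0.52 in lungs (SD, n = 3 each).

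The fourth Aff2 hairpin was TRCN0000103530. It stood at 33306, 33969 and 28437 CPM at day 0, at 37289, 35268 and 28710 CPM in culture and at 33617, 29348 and 35386 CPM in lungs, and all 3 groups overlapped. The fit called a rise of 0.33 in culture (SE 0.14, limma adjusted p = 0.0453). That call was lost when any of day 0 libraries A, B and C or culture libraries A and B was left out, at values from 0.23 to 0.35, as it was with DESeq2 size factors (limma adjusted p = 0.0671), without trend and robust estimation (adjusted p = 0.0588) and in the fit of all 3 groups (adjusted p = 0.714). The sign turned on pool totals (-0.18), and limma called it lower on the deposited scale (-0.94, adjusted p = 1.4e-05) and on scaling to the controls (-0.99, adjusted p = 1.07e-05). Lungs against day 0 gave 0.07 (SE 0.14, limma adjusted p = 0.745), and lungs against culture -0.03 (SE 0.15, limma adjusted p = 0.909), where limma called a rise on the deposited scale (0.95) and with control totals (1.60).

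Over the 4 Aff2 hairpins, 1 rose and 1 fell from day 0 to lungs, where 32.7% of the hairpins of pool 2 were called. From day 0 to culture, where 69.2% were called, 2 rose and 0 fell by limma, edgeR and DESeq2 with their own scaling and by limma before adjustment. This count turned with the scaling, to 1 and 2 on pool totals and to 0 and 3 both on the deposited scale and with control totals. From culture to lungs, where 32.7% were called, 1 rose and 1 fell by limma, while edgeR, DESeq2, limma before adjustment and limma on pool totals each gave 1 and 2, the deposited scale 2 and 0, and control totals 4 and 0. In pool 2, Non-targeting-shRNA-2 differed from day 0 by -3.46 in lungs and -1.92 in culture, Non-targeting-shRNA-1 by -0.04 and 1.72, and the GFP control by -0.77 and 0.42. TRCN0000103531 thus rose in lungs, while none of these controls did in the same mice. The fall of TRCN0000103532 in lungs was within the range of their differences only through Non-targeting-shRNA-2. That control and GFP were rare in pool 2, at mean log2 levels of 8.72 and 7.21 at day 0. In lungs they were at 5.26 and 6.43, beside 16.84 at day 0 and 16.80 in lungs for Non-targeting-shRNA-1. These control differences were not tested.

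For Myst4, the 3 hairpins gave 3 patterns. TRCN0000039339 of pool 9 stood at 23722, 23922 and 25185 CPM at day 0. Its 6 culture libraries, letters A to C in each of 2 mixtures and lanes, shared with pool 8 or pool 10, ran from 80922 to 101810 CPM with a median of 88986 CPM. The labels do not say whether these are 6 cultures or 3 cultures seen in both mixtures. Only 2 lung libraries carry values used here, at 28531 CPM in mouse A and 88545 CPM in mouse C. Every culture library lay above day 0, and the hairpin held rank 3 of 52 in all 6, from rank 10 in all 3 day 0 libraries. It rose by 1.88 in culture (SE 0.12, 3.68-fold, limma adjusted p = 4.56e-08). Within the lane shared with day 0 the rise was 1.95, and with the other lane alone, an alternative chosen after seeing the data, it was 1.69. The call held under every alternative, with values from 0.98 to 1.98. Lungs against day 0 gave 1.25 (SE 0.58, limma adjusted p = 0.173), with both mice above day 0 and a 3.10-fold difference between them. It was called with DESeq2 (1.53, adjusted p = 0.0338) and in limma's fit of all 3 groups (1.05, adjusted p = 0.0413). It was 0.29 without mouse C and 2.17 without mouse A, fits in which the lone lung library is assumed to vary like the day 0 libraries. Lungs against culture gave -0.91 (SE 0.41, limma adjusted p = 0.14), and limma called it lower on pool totals (-1.04, adjusted p = 0.00893) and on the deposited scale (-1.59, adjusted p = 0.00167). With 1 replicate letter left out at a time, this value ran from -1.65 to -0.016.

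The second hairpin of pool 9, TRCN0000039341, was rare throughout and could not be given a direction. It stood at 1256, 1445 and 1486 CPM at day 0, from 935 to 2600 CPM with a median of 1224 CPM over 6 culture libraries, and at 87 CPM in mouse A and 3256 CPM in mouse C. The culture libraries lay on both sides of day 0, and so did the 2 mice, which differed 37.5-fold. The limma estimates were -0.01 for culture against day 0 (SE 0.36, adjusted p = 0.984, but -0.91 at an adjusted p of 0.0387 with control totals), -1.18 for lungs against day 0 (SE 1.82, adjusted p = 0.658) and -1.45 for lungs against culture (SE 1.22, adjusted p = 0.397). With mouse A left out the value from day 0 to lungs was 1.53, and with mouse C left out it was -3.93.

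TRCN0000287544, the Myst4 hairpin of pool 17, fell in culture and not detectably in lungs. It stood at 30677, 36430 and 28619 CPM at day 0 and at 10195, 12984 and 8129 CPM in culture, and the 2 groups did not overlap. In lungs it was at 106289 CPM in mouse A, 21137 CPM in mouse B and 22169 CPM in mouse C, with mouse A above all day 0 libraries and the other two below them. It fell by 1.43 in culture (SE 0.18, 2.70-fold lower, limma adjusted p = 7.41e-07), and this call held under every alternative, with values from -2.76 to -1.31. Lungs against day 0 gave 0.21 (SE 0.64, limma adjusted p = 0.831), and lungs against culture 1.69 (SE 0.61, limma adjusted p = 0.0533). The latter was called under 9 of 17 alternatives other than leaving out a replicate, and was 0.88 without lung library A (limma adjusted p = 0.101).

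The lung library of mouse A in pool 17 and the culture library A of pools 16 and 17 are the 2 libraries with many reads of other pools, mostly of pool 10, which made up 14.5% and 14.9% of their reads. Without both, an alternative chosen after seeing the data, TRCN0000287544 had a log2 fold change of -0.46 from day 0 to lungs (limma adjusted p = 0.0929), of -1.32 from day 0 to culture (adjusted p = 2.05e-09) and of 0.78 from culture to lungs (adjusted p = 0.264). The part of the foreign reads in the high value of mouse A was not tested.

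Over the 3 Myst4 hairpins, 1 rose and 1 fell from day 0 to culture, where 71.2% of the hairpins of pool 9 and 53.7% of those of pool 17 were called. By limma 0 were called from day 0 to lungs (34.6% and 25.9% of these pools) and 0 from culture to lungs (40.4% and 9.26%). At an unadjusted limma p under 0.05 these counts were 0 and 1, by edgeR 0 and 1 and by DESeq2 1 and 1, all of them rises. In the culture of pool 9, Non-targeting-shRNA-1 differed from day 0 by 2.02, Non-targeting-shRNA-2 by -1.50 and the GFP control by 0.94, beside the rise of 1.88 of TRCN0000039339. In the culture of pool 17 these differences were 2.35, -0.56 and 0.66, beside the log2 change of -1.43 of TRCN0000287544. The culture libraries of both pools hold the controls of 2 pools, and these control differences were not tested.

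Hairpins of one gene in one pool can be set against each other within a library, which removes any common scaling. Over the 9 such pairs and 3 comparisons, 27 ratios were tested by a two-sided exact permutation test over libraries. With 3 libraries against 3 this exact test cannot go below p = 0.1. After Benjamini-Hochberg adjustment over the 27 exact tests 0 passed, the smallest adjusted p being 0.142. Before adjustment 1 was under 0.05, that of the Myst4 pair in culture against day 0. Only that test, with 6 libraries against 3, could go so low.

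The largest of these changes was in the Aff4 pair of pool 11. The log2 ratio of TRCN0000103587 to TRCN0000103588 was 0.78 ± 0.13 at day 0, -1.76 ± 0.19 in culture and -3.43 ± 2.46 in lungs (SD, n = 3 each), a difference of -2.54 in culture and -4.22 in lungs from day 0, the latter from -5.38 to -2.93 when 1 library was left out. In pool 12, the ratio of TRCN0000103585 to TRCN0000103586 was -0.60 ± 0.18 at day 0, 1.95 ± 0.44 in culture and 1.96 ± 1.67 in lungs (SD, n = 3 each). That is a difference from day 0 of 2.56 in culture and 2.57 in lungs, the latter from 1.64 to 3.27 when 1 library was left out.

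For Aff2, the ratio of TRCN0000103531 to TRCN0000103532 was 1.80 ± 0.29 at day 0, 2.33 ± 0.15 in culture and 4.18 ± 0.30 in lungs (SD, n = 3 each). The groups did not overlap, and the lungs differed by 2.38 from day 0 and by 1.85 from culture. For Myst4 in pool 9, the ratio of TRCN0000039339 to TRCN0000039341 was 4.12 ± 0.10 at day 0 (SD, n = 3), 6.01 ± 0.65 in culture (SD, n = 6) and 6.56 ± 2.54 in lungs (SD, n = 2). In culture this ratio differed from day 0 by 1.89, with p = 0.0238 by the exact permutation test, the smallest it allows for 6 against 3, and 0.142 after adjustment. If the 6 libraries are 3 cultures seen in both mixtures, the exact test cannot go below 0.1. All these are descriptions of the hairpins, and which of a pair follows its target gene was not measured.

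The likeness of profiles is given as Pearson's r of log2(CPM + 1) over the libraries of a pool, 9 in pools 2, 11, 12 and 17 and 11 in pool 9. These libraries share groups and scaling, so r is a description. Among Aff2 partners, TRCN0000103530 had r of 0.26 with TRCN0000103533, 0.10 with TRCN0000103531 and -0.17 with TRCN0000103532, and TRCN0000103533 had -0.43 with TRCN0000103531 and -0.01 with TRCN0000103532. For TRCN0000103531 and TRCN0000103532 r was -0.84, for TRCN0000103587 and TRCN0000103588 it was -0.11, for TRCN0000103585 and TRCN0000103586 -0.34, and for TRCN0000039339 and TRCN0000039341 0.36. The median r of a member with all other hairpins of its pool ran from -0.23 for TRCN0000103533 to 0.19 for TRCN0000103587, so these values lie on both sides of the background.

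The closest hairpins of other genes are maxima over a whole pool, so their r is not comparable with that of a fixed partner. The 2 most like TRCN0000103587 targeted Psmd12, a subunit of the proteasome (r = 0.96), and Ccdc63 (r = 0.87). The 2 most like TRCN0000103586 targeted Arhgef12 (r = 0.96), and Fbxo22, an F-box protein of ubiquitin ligases (r = 0.91). TRCN0000103588 was closest to hairpins of Bzw2 (r = 0.92) and Dock2 (r = 0.87), and TRCN0000103585 to those of Ahnak (r = 0.91) and Pbrm1 (r = 0.66).

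Among Aff2 hairpins, TRCN0000103531 was closest to a hairpin of Tmtc2 (r = 0.92), and TRCN0000103532 to one of Csmd1 (r = 0.87) and one of Ctnnb1, which encodes beta-catenin (r = 0.86). TRCN0000103533 was closest to a hairpin of the cell cycle inhibitor gene Cdkn2a (r = 0.92) and one of Magea6 (r = 0.88), and TRCN0000103530 to Fam5c (r = 0.70) and Csmd1 (r = 0.53) hairpins. For Myst4, TRCN0000039339 was closest to hairpins of Slc37a2 (r = 0.95) and Ptges3 (r = 0.91), TRCN0000287544 to those of Pbrm1 (r = 0.77) and Ndufb2 (r = 0.76), and TRCN0000039341 to those of BC003331 (r = 0.61) and Alms1 (r = 0.53).

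Other genes of transcription elongation and chromatin were read from a list of 262 symbols, of which the library held 10. Among these were Whsc2 in elongation, Crebbp in histone acetylation, Mll3 and Kdm5a in histone methylation, and Arid1a, Arid2, Smarca4, Pbrm1 and Chd7 in nucleosome remodelling. Their 37 hairpins lay in several pools. From day 0 to lungs 2 of 24 tested rose and 4 fell, from day 0 to culture 10 of 35 rose and 8 fell, and from culture to lungs 1 of 24 rose and 5 fell. These are 25%, 51.4% and 25% called, beside 33.8%, 60.6% and 24.9% of all hairpins. Their median log2 changes were -0.13, 0.00 and 0.00.

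In elongation, Whsc2 encodes a subunit of the negative elongation factor NELF. Its hairpin TRCN0000124875 in pool 10 fell by 2.08 from day 0 to lungs (SE 0.26, limma adjusted p = 0.00279) and by 1.63 from culture to lungs (SE 0.32, adjusted p = 0.00462), and the 4 Whsc2 hairpins ran from -2.08 to 1.26 in lungs against day 0. Lung library 10C holds few reads of its own pool, and without it and 16D the 4 values were -2.28, -1.56, -1.21 and -0.28, of which the first pair was called.

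In remodelling, Pbrm1 encodes a subunit of the PBAF complex. Its hairpin TRCN0000304681, which shares pool 17 with TRCN0000287544, fell by 3.05 in culture (SE 0.24, limma adjusted p = 5.43e-10), and it fell by 4.23 from day 0 to lungs (SE 0.45, adjusted p = 0.00106). Pbrm1 TRCN0000081822, which shares pool 12 with TRCN0000103586, rose by 1.67 in culture (SE 0.16, limma adjusted p = 3.57e-08) and fell by 1.62 from culture to lungs (SE 0.29, adjusted p = 0.00214), and Pbrm1 TRCN0000081820 fell by 1.63 from culture to lungs (SE 0.43, adjusted p = 0.0154). As with Aff4, the hairpins of 1 gene held calls in both directions in culture. Smarca4 TRCN0000288075 and Arid1a TRCN0000238304, against subunits of SWI/SNF complexes, rose in culture by 1.54 and 1.71 (SE 0.09 and 0.16, limma adjusted p = 2.24e-05 and 0.000179). The Arid2 hairpin TRCN0000225732 fell by 2.33 from day 0 to lungs (SE 0.36, limma adjusted p = 0.00312) and fell by 2.19 from culture to lungs (SE 0.55, adjusted p = 0.0213).

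Besides these, Kdm5a, a histone demethylase gene, had TRCN0000113534 rise by 0.92 in culture (SE 0.11, limma adjusted p = 0.000129) and TRCN0000326118 rise by 0.59 from day 0 to lungs (SE 0.17, adjusted p = 0.0447), while TRCN0000326191 fell by 1.17 in culture (SE 0.23, adjusted p = 0.00121). Chd7, a remodelling gene, had TRCN0000238673 rise by 1.19 from day 0 to lungs (SE 0.37, limma adjusted p = 0.0462) and TRCN0000238672 rise by 2.83 from culture to lungs (SE 0.72, adjusted p = 0.00772) after it fell by 1.09 in culture (SE 0.46, adjusted p = 0.0447). Lung library 16D likewise holds few reads of its own pool. Without 10C and 16D, 3 of 24 listed hairpins rose and 7 fell from day 0 to lungs. Over all 891 hairpins tested, this setting gave 160 rises and 198 falls. Kdm5a TRCN0000326118 was then at 0.65 and Kdm5a TRCN0000326191 at -0.64, the latter called lower (limma adjusted p = 0.0233).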

How the data were processed

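Hairpin sequences were amplified from genomic DNA by PCR in 2 steps, per the labels' protocols. The deposited values are a signal, per the file headers a normalised count. How it was counted and scaled is not given in the sources used here, and BWA 0.5.9 is named without a role in the submitters' processing notes. Reads were recovered by dividing each library's values by the smallest of them. This gave whole numbers within 0.01 for 27241 of 27241 values (100%). Of 158 samples, 148 carry values. Technical repeats were added up, and a hairpin absent from a file counts as 0.

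For the main test, reads of the targeting hairpins belonging to a pool became CPM with TMM factors of edgeR 4.0.16. Log2(CPM + 1) was fitted pool by pool with limma 3.58.1 in R 4.3.3, with a variance trend and robust estimation, on only the 2 groups compared. Hairpins needed a mean of at least 10 reads. Benjamini-Hochberg adjustment ran across every pool together, with 0.05 as threshold. The added 1 makes changes of rare hairpins look smaller. Within-gene ratios were tested by exact permutation. Alternatives were edgeR, DESeq2 1.42.0, other scalings, pseudocounts and filters, a replicate block and leaving out each replicate. edgeR's test on the recovered reads called 279 hairpins from day 0 to lungs, 553 from day 0 to culture and 222 from culture to lungs, where limma called 301, 573 and 221.

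The text names all hairpins of the 3 genes, the 2 most like hairpins of each, and up to 6 hairpins of the chromatin list with the lowest p per comparison. Some items that this rule names are not reported here. Myst4 was matched to Kat6b through the RefSeq table. Members and lists were chosen with earlier results of these data known. On simulated reads with a log2 change of 2 in 200 hairpins, 56.5% were recovered by limma from day 0 to lungs (891 tested, 12.4% of calls false) and 88% from day 0 to culture (945 tested, 9.28% false). From culture to lungs 41.7% of 199 were recovered (888 tested, 15.3% false). The share of false calls exceeded the threshold in all 3.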

Additional observations from a re-analysis of the deposited data

Results flagged for a closer look

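For 2 of the 11 hairpins the change from day 0 differed between lungs and culture, by limma's test of lungs against culture. This test called 24.9% of all hairpins tested, and 32.7% of those of pool 2, which holds both. Aff2 TRCN0000103531 was higher in lungs than in culture by 1.37 on the log2 scale (SE 0.13, limma adjusted p = 0.000674), in 3 of 3 lung libraries. Aff2 TRCN0000103533 had a log2 fold change of -0.77 (SE 0.11, limma adjusted p = 0.00401), lower in 3 of 3 lung libraries, with the reverse direction on the deposited scale and on scaling to the controls. A search for single libraries far from the rest was possible in 2 groups of 6 culture libraries and found 0; chance gives about 1 in 20 groups.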

How the results depend on the processing

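Of the fold changes of the 11 hairpins under all alternatives, 739 kept their direction and their side of the threshold, 40 passed it only under the alternative, 21 no longer passed and 58 turned in sign; of the within-gene ratios 184 kept both and 5 turned. The smallest number of reads behind a level of the 11 was 391. With these numbers of libraries, limma recovered 56.5% of simulated log2 changes of 2 from day 0 to lungs, 88% from day 0 to culture and 41.7% from culture to lungs. The cause of the shifts below was not tested; the controls of 2 pools in shared culture libraries enter the control scaling by construction.

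The letters of the replicates did not pair the libraries over the pools as a whole. Of 48 same-letter pairs 18 had a correlation of deviations over 0.1 (range -0.60 to 0.59), and in 2 of 15 pool comparisons every library was closest to its own letter. All 3 pairs exceeded 0.1 in 1 of the 15, culture against day 0 in pool 17, where the block kept the fall of Myst4 TRCN0000287544 (-1.43, limma adjusted p = 4.53e-10). A replicate block gave 231 calls over all hairpins from day 0 to lungs, 575 from day 0 to culture and 192 from culture to lungs, and 4, 8 and 3 among the 11. It added the call of Myst4 TRCN0000287544 from culture to lungs (1.69, limma adjusted p = 0.0484).

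All 3 groups in one fit gave 364 calls over all hairpins for culture against day 0, beside 573. Of the 11, lungs against culture gave 4 calls with edgeR, 5 with DESeq2, 5 with totals, 5 on the deposited scale, 6 with control totals and 4 with all 3 groups in one fit, beside 2. In rises and falls these were 2 and 2, 3 and 2, 2 and 3, 4 and 1, 6 and 0, and 3 and 1. Over all 889 hairpins tested these settings gave 222, 289, 242, 226, 257 and 310 calls, beside 221. Leaving out 1 replicate letter at a time gave 148 to 388 calls over all hairpins for lungs against day 0, 479 to 605 for culture against day 0 and 142 to 249 for lungs against culture, and 2 to 7, 7 to 8 and 2 to 4 among the 11.

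For lungs against day 0, the turned values were 0.56 with edgeR and 0.59 with DESeq2 for Myst4 TRCN0000039341, and -0.30 with totals for Aff2 TRCN0000103530. For Aff2 TRCN0000103533 they were -0.025 with DESeq2, -0.016 with its size factors in limma, -0.36 with totals, -0.0495 on the deposited scale and -0.021 with all 3 groups in one fit. Aff4 TRCN0000103585 gave -0.019 with totals. Myst4 TRCN0000287544 gave -0.45 with totals, -0.48 on the deposited scale, -0.48 with control totals and -0.46 without lung library 17A and culture library 16/17A.

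For culture against day 0, Myst4 TRCN0000039341 gave 0.085 with edgeR, 0.17 with DESeq2, 0.081 with its size factors in limma, 0.049 on the deposited scale and 0.024 within the lane of day 0. With totals, the deposited scale and control totals, Aff2 TRCN0000103530 gave -0.18, -0.94 and -0.99, and Aff2 TRCN0000103531 gave -0.27, -1.02 and -1.07, with -0.0043 in the fit of all 3 groups; limma called the fall of TRCN0000103531 on all 3 scales and that of TRCN0000103530 on the latter 2. Aff2 TRCN0000103533 gave -0.26 and -0.31 on the deposited scale and with control totals.

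For lungs against culture, Myst4 TRCN0000039341 gave 0.17 with edgeR and 0.37 with DESeq2. Aff2 TRCN0000103530 gave 0.011 with DESeq2, 0.016 with its size factors, 0.95 on the deposited scale and 1.60 with control totals. On the latter 2 scales Aff2 TRCN0000103532 gave 0.49 and 1.15, and Aff2 TRCN0000103533 gave 0.21 and 0.86. Aff4 TRCN0000103586 gave 0.041 with edgeR and 0.24 with DESeq2, and Aff4 TRCN0000103587 gave 0.026 with DESeq2 and 0.024 with control totals.

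Where the sign turned on leaving out 1 replicate letter at a time, the values for lungs against day 0 ran from -3.93 to 1.53 for Myst4 TRCN0000039341, -0.46 to 0.64 for Myst4 TRCN0000287544, -0.0042 to 0.13 for Aff2 TRCN0000103530, -0.097 to 0.11 for Aff2 TRCN0000103533 and -0.0043 to 0.48 for Aff4 TRCN0000103585. For culture against day 0 Myst4 TRCN0000039341 ran from -0.13 to 0.24. For lungs against culture the ranges were -3.98 to 1.23 for Myst4 TRCN0000039341, -0.15 to 0.068 for Aff2 TRCN0000103530, -0.61 to 0.011 for Aff4 TRCN0000103585, -1.16 to 0.31 for Aff4 TRCN0000103586 and -1.50 to 0.41 for Aff4 TRCN0000103587. The log2 ratios that turned ran from -0.0040 to 0.20 for TRCN0000103530 over TRCN0000103531 in culture against day 0, and from -0.11 to 0.20 for TRCN0000103530 over TRCN0000103533 in lungs against day 0. In lungs against culture they ran from -0.92 to 0.71 for TRCN0000103585 over TRCN0000103586 and from -1.25 to 2.35 for TRCN0000039339 over TRCN0000039341.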
